A study of Mus musculus with 64 samples.

Results

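The let-7 and miR-98 microRNAs were followed through small RNA libraries of mouse liver and gonadal adipose tissue. Members were all Ids whose name begins with mmu-let-7 or mmu-mir-98- in the deposited normalized small RNA tables, from either arm of the hairpin and with or without a shifted start, with a mean signal of 10 or more in at least 1 of the tables. Of 145 such Ids, 115 met the rule, among 2181 small RNA features listed in either table. All 115 reached the mean of 10 in adipose tissue and 80 reached it in liver, so the fits held all of them for adipose tissue and left out 35 for liver. The highest Id left out in liver was let-7a-1-5p_+_2 at a mean of 9.86 and the lowest kept was let-7f-2-5p_-_2 at 10.2. In adipose tissue the corresponding values were 9.85 for let-7g-5p_+_5 and 11.1 for let-7g-5p_+_6.

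All animals were of the 129S6/SvEvTac strain and all had drunk inorganic arsenic at 400 ppb for 4 weeks. No unexposed group is compared here. Wild type (WT) animals carry the mouse As3mt gene, whose product methylates arsenic for excretion, and humanized animals carry the human ortholog AS3MT. No ages are given in the labels. The liver small RNA libraries comprised 5 from WT females, 5 from humanized females, 5 from WT males and 6 from humanized males. The adipose small RNA libraries comprised 5, 6, 4 and 5 in the same order. The mRNA tables of the same tissues and groups held 12 liver libraries, 3 in each group, and 11 adipose libraries, 3 in each group apart from 2 of WT males. The labels do not link mRNA libraries to small RNA libraries. Small RNA library names carry a tag, read here as that of the animal, and the tags differ within each group and tissue. Several tags of a group recur in both tissues. The labels do not explain the tags, and mRNA library names hold none. The p-values are therefore taken to measure only the spread between libraries.

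The let-7 family is among the most conserved of animal microRNAs. The 5p strand is loaded into an Argonaute protein, where its bases 2 to 8, the seed, pair with target mRNAs and lower their stability and translation. The family is low in embryonic tissue, where LIN28 proteins block the maturation of its precursors, and abundant in differentiated tissue such as liver, where it represses oncofetal and growth genes. Forced let-7 expression in mice impairs glucose tolerance and lowers insulin and IGF receptor signalling.

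The mature 5p sequences are shown first because the family is defined by them, with the seed in capitals. They are the RefSeq entries on the GRCm38.p6 build, and 11 of the 12 family loci had one.
let-7a-5p: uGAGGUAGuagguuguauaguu
let-7b-5p: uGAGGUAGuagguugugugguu
let-7c-5p: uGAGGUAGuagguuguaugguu
let-7d-5p: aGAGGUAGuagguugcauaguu
let-7e-5p: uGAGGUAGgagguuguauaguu
let-7f-5p: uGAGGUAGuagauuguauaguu
let-7g-5p: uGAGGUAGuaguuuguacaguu
let-7i-5p: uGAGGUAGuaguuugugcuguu
miR-98-5p: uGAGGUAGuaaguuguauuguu

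These 9 sequences share 1 seed. Against let-7a-5p, with positions counted from 1 at the 5′ end, let-7c-5p differs by A19G, let-7e-5p by U9G and let-7f-5p by G12A. The changes in let-7b-5p are A17G and A19G, in let-7d-5p U1A and U16C, in let-7g-5p G12U and U18C, and in miR-98-5p G11A and A19U. The most distant, let-7i-5p, carries G12U, A17G, U18C and A19U. No difference falls within the seed, and apart from position 1 all lie at position 9 or beyond.

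Several loci lie together. The chromosome 13 cluster, on the minus strand, holds let-7a-1 (mature 5p at chr13:48538239-48538260), let-7f-1 (chr13:48537889-48537910) and let-7d (chr13:48536078-48536099). On the plus strand of chromosome 15, let-7c-2 (chr15:85706616-85706637) precedes let-7b (chr15:85707325-85707346). The X chromosome holds let-7f-2 (chrX:151912353-151912374, plus strand) and miR-98 (chrX:151913229-151913250, plus strand). The single loci are let-7c-1 (chr16:77599672-77599693, plus), let-7e (chr17:17830366-17830387, plus), let-7g (chr9:106178846-106178867, plus) and let-7i (chr10:122985698-122985719, minus), and the let-7a-2 hairpin lies on chromosome 9. Among the loci, let-7a-1 and let-7a-2, let-7c-1 and let-7c-2, and let-7f-1 and let-7f-2 produce the same 5p name in pairs, so their unshifted reads cannot be assigned to a locus and the members are not independent of each other.

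Among the unshifted 5p forms let-7f-5p was highest in liver and let-7c-5p in adipose tissue. Values are the authors' normalized signal, on which a mean over libraries of 1 table can be compared, while levels in liver and adipose tissue come from tables normalized separately. Ligation and amplification capture different small RNAs unequally, so the order given here is an order of signal. For the pairs of loci with 1 sequence, the higher of the pair stands for the sequence. In liver the signal of let-7f-5p ran from 256331 to 410940 over the 21 libraries, with a median of 301067. The lowest of the 9 in liver, let-7e-5p, ran from 6916 to 12482 with a median of 8162. Thus the liver order was let-7f, let-7g, let-7c, let-7b, let-7a, let-7d, let-7i, miR-98 and let-7e, and the members spanned more than an order of magnitude although they share their seed.

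Neighbours in that order were often not separated. In liver, let-7f-5p exceeded let-7g-5p in 19 of 21 libraries, let-7g-5p exceeded let-7c-5p in 17, let-7c-5p exceeded let-7b-5p in 15, let-7b-5p exceeded let-7a-5p in 13 and let-7d-5p exceeded let-7i-5p in 14. The remaining 3 steps, from let-7a-5p to let-7d-5p, from let-7i-5p to miR-98-5p and from miR-98-5p to let-7e-5p, held in all 21. The means from let-7g-5p to let-7a-5p were 233809, 180153, 166807 and 146094. Further down, let-7d-5p averaged 69638, let-7i-5p 55095 and miR-98-5p 13635.

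In adipose tissue let-7c-5p averaged 698010 (434554 to 1005497 over 20 libraries), let-7b-5p 670255 (391972 to 1063303) and let-7f-5p 656468 (534667 to 853754). These leading 3 had no fixed order, since let-7c-5p exceeded let-7b-5p in 16 of 20 libraries and let-7b-5p exceeded let-7f-5p in 10. The next 3 were let-7g-5p at 398836, let-7i-5p at 345166 and let-7a-5p at 338812, and they too changed places between libraries, let-7g-5p exceeding let-7i-5p in 15 and let-7i-5p exceeding let-7a-5p in 9. Below them, let-7d-5p at 188113, let-7e-5p at 88414 and miR-98-5p at 47035 kept their order in all 20 libraries.

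As percentages of the summed 5p signal of each library, the makeup of the family differed between the tissues. Averaged over libraries, let-7f-5p made up 26.1% in liver and 19.3% in adipose tissue, let-7g-5p 19.9% and 11.8%, and let-7a-5p 12.4% and 9.87%. The members with higher percentages in adipose tissue were let-7c-5p at 15.2% in liver and 20.2% in adipose tissue, let-7b-5p at 13.9% and 19.4%, let-7i-5p at 4.69% and 10.1%, and let-7e-5p at 0.735% and 2.55%. The percentages of let-7d-5p (5.84% and 5.44%) and miR-98-5p (1.17% and 1.38%) lay close together. Because the tables were normalized separately, no test was made between the tissues.

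**Figure D1:**
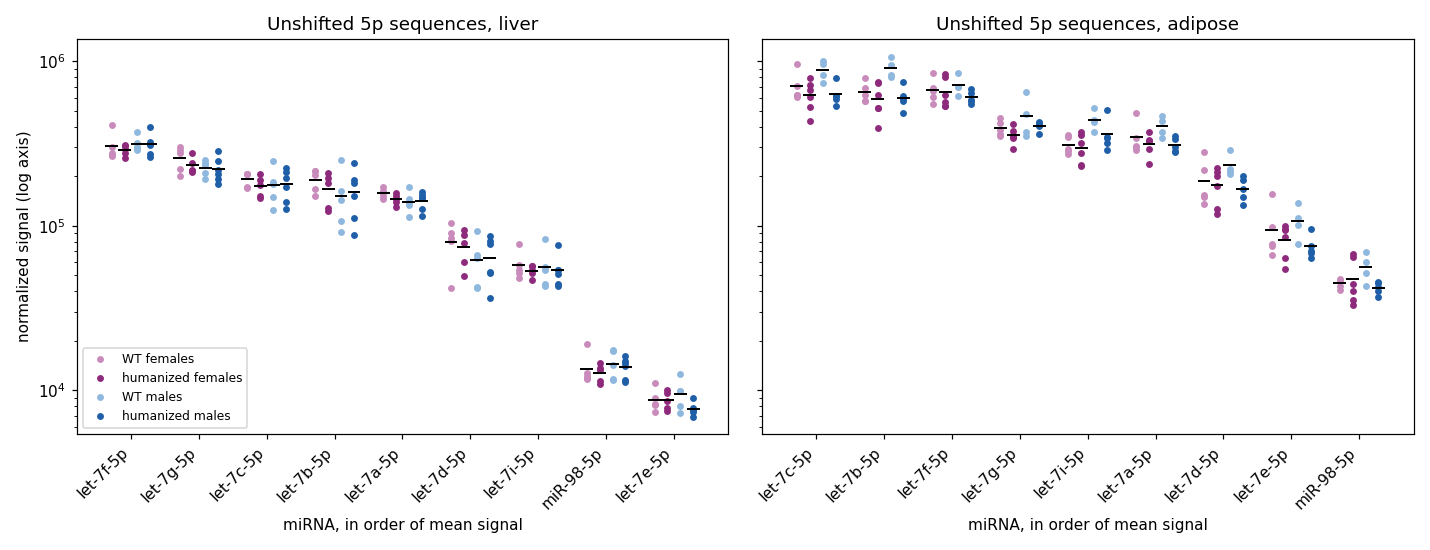
Normalized signal (log axis) of the 9 unshifted 5p sequences in liver and adipose tissue. Each point is 1 library coloured by group and each bar is a group mean. Levels span more than an order of magnitude within each tissue, let-7f-5p leads in liver, and let-7e-5p and miR-98-5p exchange the last place between the tissues.

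In the plot of 5p levels by library, groups overlap for some sequences and part for others, such as adipose let-7b-5p and let-7i-5p, described below. In adipose tissue let-7g-5p averaged 394460 ± 42366 (SD, n = 5) in WT females, 355208 ± 41383 (SD, n = 6) in humanized females, 462414 ± 135823 (SD, n = 4) in WT males and 404703 ± 25253 (SD, n = 5) in humanized males. In liver miR-98-5p averaged 13495 ± 3097 (SD, n = 5), 12785 ± 1552 (SD, n = 5), 14480 ± 2945 (SD, n = 5) and 13755 ± 1987 (SD, n = 6) in the same order of groups. The ranges of all 4 groups overlap for both.

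All members together took 15.4% ± 1.45 (SD, n = 21) of the summed signal in liver, with single libraries between 12.5% and 17.4%. In adipose tissue they took 30.4% ± 3.32 (SD, n = 20), between 24.6% and 39.01%. The liver groups averaged 16.0% ± 1.77 in WT females, 15.2% ± 0.605 in humanized females, 14.8% ± 2.03 in WT males and 15.7% ± 1.22 in humanized males (SD). The adipose groups averaged 30.5% ± 2.83, 29.0% ± 3.30, 33.8% ± 4.28 and 29.2% ± 1.01 (SD), so the WT males had the highest mean and the widest spread. A single other microRNA, the hepatocyte-specific miR-122-5p, took 46.4% of the liver signal (42.1% to 54.8%), and without it the family share in liver was 28.8%. The most abundant other feature of adipose tissue, miR-26a-2-5p, took 6.66%, and without it the family share there was 32.5%. With Ids of 1 sequence counted once, the shares were 11.0% in liver and 23.0% in adipose tissue.

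Forms whose start is displaced from the annotated 5′ end made up most of the Ids and almost none of the signal. Of the 115 members, 12 were unshifted 5p forms, 67 were 5p forms with a plus shift, 20 were 5p forms with a minus shift, 10 were unshifted 3p forms and 6 were 3p forms with a plus shift. A plus is read here as a start displaced downstream, toward the 3′ end, and a minus as a start upstream. The unshifted start carried 99.4% of the 5p signal in both tissues. A start at plus 1 carried 0.393% in liver and 0.356% in adipose tissue, and a start at minus 1 carried 0.154% and 0.161%. A start at plus 3 (0.0245% and 0.0227%) carried more than a start at plus 2 (0.00569% and 0.00808%).

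**Figure D2:**
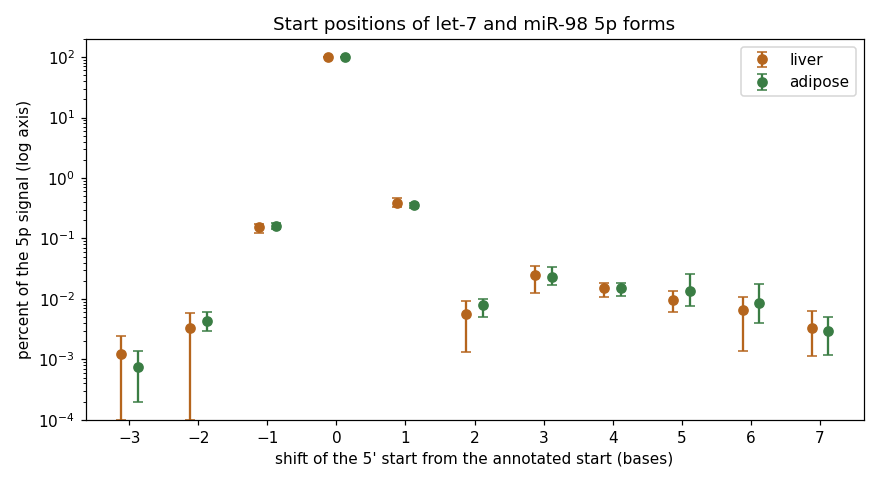
Percentage of the summed family 5p signal (log axis) by displacement of the start in nucleotides, in liver and adipose tissue. Points are means over libraries and bars run from the lowest to the highest library, ending at the lower edge of the axis where the lowest library is listed at 0. Both tissues share a peak at 0, a step down to plus 1 and minus 1, and a plus 3 start above plus 2.

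The profile of starts was nearly the same in both tissues, but the loci differed from each other. Shifted starts made up 1.61% of the let-7d 5p signal in liver and 1.55% in adipose tissue, and 1.15% and 1.40% of the let-7g 5p signal. At the other end, they made up 0.243% and 0.231% of let-7b and 0.201% and 0.224% of let-7i. Shifted starts of let-7e made up 0.595% in liver and 0.344% in adipose tissue.

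At the unshifted start the Ids of 1 sequence kept a steady ratio over libraries, though not always 1. They parted further at some shifted starts. The ratio of let-7a-1-5p to let-7a-2-5p had a median over libraries of 1.02 in liver and 1.01 in adipose tissue, that of let-7c-1-5p to let-7c-2-5p was 0.890 and 0.948, and that of let-7f-1-5p to let-7f-2-5p 0.852 and 0.912. At minus 1 the read takes in the base before the mature sequence, which differs between the copies, U for let-7c-1 and G for let-7c-2. There the ratio of let-7c-1 to let-7c-2 was 5.35 in liver (3.20 to 7.52 over libraries) and 10.4 in adipose tissue (8.02 to 16.8). The minus 1 ratio of let-7a-1 to let-7a-2 was 1.21 in liver and 0.435 in adipose tissue, and that of let-7f-1 to let-7f-2 was 0.622 and 0.629. At plus 2, where the read holds no base before the mature sequence, let-7f-1 and let-7f-2 parted as well. Their ratio there was 1.95 in liver (1.45 to 2.70) and 4.19 in adipose tissue (2.84 to 6.90).

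A plus 1 start moves the seed by 1 base, and the moved seed is that of another microRNA family. The sequences are given to show this, with bases 2 to 8 in capitals, read from the same RefSeq table.
let-7a-5p_+_1: gAGGUAGUagguuguauaguu
miR-196a-5p: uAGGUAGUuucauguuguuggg
miR-196b-5p: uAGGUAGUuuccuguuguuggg

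The seed AGGUAGU belonged to 2 of 1679 mature mouse names in that table, miR-196a-5p and miR-196b-5p, which are encoded within the HOX clusters and mark posterior tissue. It is also the seed of the plus 1 form of every family 5p sequence but let-7e, whose base 9 differs. This comparison was chosen after its values were seen. With copies counted once, the plus 1 forms of these 8 sequences summed to 4701 in liver (3935 to 5443 over 21 libraries). Against that, miR-196a-5p averaged 128 (53.1 to 280) and miR-196b-5p 47.2. Shares were taken of the signal summed over these forms and the 2 miR-196 sequences. The shifted let-7 forms thus made up 97.0% in WT females, 97.3% in humanized females, 95.4% in WT males and 96.1% in humanized males. Shifted forms of other microRNAs were not counted.

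In adipose tissue the balance differed between the sexes through miR-196. The part that the site of the gonadal fat may have in this difference was not tested. The let-7 plus 1 sum averaged 11397 ± 1304 (SD, n = 5) in WT females, 10652 ± 1484 (SD, n = 6) in humanized females, 13866 ± 2446 (SD, n = 4) in WT males and 11014 ± 439 (SD, n = 5) in humanized males. In females miR-196a-5p was at 34419 ± 2686 (WT) and 37202 ± 6913 (humanized), whereas in males it was at 472 ± 104 (WT) and 396 ± 223 (humanized; SD). The mean of miR-196b-5p was 11187 and 13715 in females and 273 and 214 in males. Of the signal summed over the same sequences, the let-7 forms made up 20.0% ± 1.87 in WT females and 17.5% ± 2.25 in humanized females (SD). In males they made up 94.8% ± 1.46 (WT) and 94.8% ± 3.06 (humanized; SD). The male minus female log2 difference was -6.39 (SE 0.21) for the Id of miR-196a-1-5p and -5.88 (SE 0.29) for miR-196b-5p, with adjusted p of 1.3e-14 and 1.48e-11 (limma, Benjamini-Hochberg over all features tested). In liver the difference for miR-196a-1-5p was 0.60, with an adjusted p of 0.146.

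**Figure D3:**
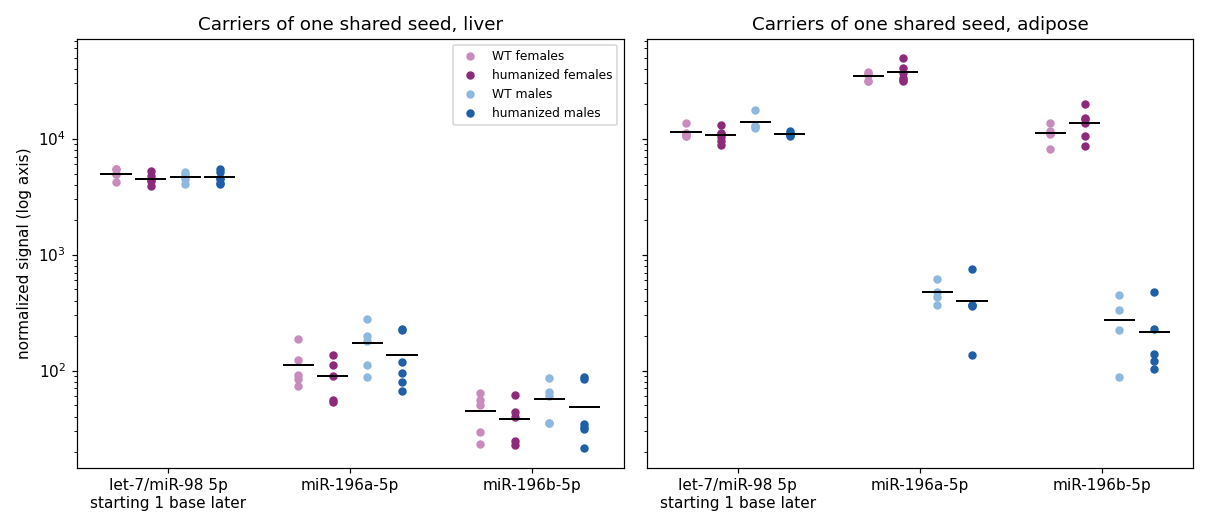
Signal (log axis) of the summed let-7 and miR-98 plus 1 forms, of miR-196a-5p and of miR-196b-5p by group and tissue. Points are libraries and bars are group means. Adipose miR-196 stands above the let-7 sum or near it in females and far below it in males, while the group means of the let-7 sum stay between 10652 and 13866.

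The 3p strands, which are the strands usually degraded, were a small part of each locus, with the largest share at let-7d. The 3p share of the locus signal was 2.11% for let-7d in liver (0.855% to 3.10% over libraries), 1.03% for let-7e and 0.443% for let-7a-1. The let-7a-1-3p and let-7c-2-3p sequences are identical and their Ids carry the same signal, so this last share cannot be assigned to the let-7a-1 locus. In adipose tissue it was 2.42% for let-7d (1.04% to 4.13%), 0.784% for let-7e and 0.665% for let-7a-1. By contrast the 3p share was 0.0187% for let-7f-1 in liver and 0.0122% in adipose tissue. The let-7d 3p strand is printed because results below turn on it and on its plus 1 form.
let-7d-3p: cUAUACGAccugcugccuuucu
let-7d-3p_+_1: uAUACGACcugcugccuuucu

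The let-7d-3p sequence lies at chr13:48536024-48536045 on the minus strand. Its seed UAUACGA was found in 1 of 1679 mature names, let-7d-3p itself, and the seed AUACGAC of the plus 1 form in none. The plus 1 form made up 3.62% of the let-7d-3p signal in liver and 3.46% in adipose tissue. By contrast the 3p seed UAUACAA is shared by 5 loci, let-7a-1, let-7b, let-7c-2, let-7f-1 and miR-98.

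The 3p share of let-7d, and of other loci, moved with the form of the library name in adipose tissue. Some library names start with the group and others with an animal tag, and the labels do not say what this stands for. The let-7d share averaged 3.31% ± 0.580 (SD, n = 11) where the name starts with the group and 1.33% ± 0.225 (SD, n = 9) where it starts with the tag. The ranges, 2.28% to 4.13% and 1.04% to 1.61%, did not overlap. The let-7b 3p share did not overlap either, at 0.0546% to 0.109% against 0.0220% to 0.0478%. The means were 0.870% against 0.415% for let-7a-1 and 0.968% against 0.560% for let-7e, with overlap. In liver the corresponding let-7d means were 2.10% and 2.13%. The stromal microRNAs miR-143, miR-145 and miR-199a also moved with the form of the name, at 2.02% to 3.19% of the adipose signal where the name starts with the group and 2.83% to 5.98% where it starts with the tag, and their part in the let-7d share was not tested. Each group holds both forms, and the form of the name was a covariate in the small RNA fits.

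The first question was whether replacing mouse As3mt by human AS3MT went with a change in let-7 levels under arsenic. In liver no member was called at an adjusted p below 0.05 in males, in females, over both sexes or in the genotype by sex term. The background was the same, since 0% of the 837 features tested were called in any of these 4 comparisons. At an unadjusted p below 0.05 there were 3, 1, 1 and 3 of the 80 members, where the percentages over all features were 5.5%, 2.99%, 3.11% and 2.99%. Only limma was run on these tables.

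The smallest p-values among liver members lay with rare forms near the lower limit of the data. In males let-7i-5p_+_3 was listed at 0 in 5 of 6 humanized libraries and at 16.0 in the other, and ran from 0 to 31.6 with a median of 19.9 over the 5 WT libraries (adjusted p of 0.847). The form let-7f-2-5p_+_2 was listed at 0 in 3 of 6 humanized male libraries and ran from 15.6 to 36.1 in WT males (adjusted p of 0.847). Features under a limit, read here as 10 reads, are listed at 0 in these tables, so no fold is given for either. The only abundant member among the 3 was let-7e-5p, at a humanized minus WT log2 difference of -0.30 (SE 0.12, adjusted p of 0.847).

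In liver females the lowest p-values were those of let-7c-2-5p_+_3, at a log2 difference of -0.63, and let-7c-2-5p_+_6, at -0.47, both with an adjusted p of 0.998. The same forms had the smallest p-values in the genotype by sex term, at 0.92 and 0.70 (adjusted p of 0.965). Over both sexes the smallest were again those of let-7i-5p_+_3 and let-7f-2-5p_+_2 (adjusted p of 0.986). In females all 12 unshifted 5p Ids, which hold 9 sequences, were below 0, as were 69 of all 80 members. Members above 0 made up 13.8%, against 49.8% of all features. Members share reads and libraries, so these counts are not independent observations. The member median in females was -0.17 against -0.00 over all features. In males the member median was 0.00 against -0.03 over all features. Over both sexes it was -0.08 against -0.03, and in the genotype by sex term 0.14 against -0.07.

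In adipose tissue of males 1 of 115 members was called, where 0.616% of the 1298 features tested were. That member was let-7d-3p_+_1. Its signal in the 4 WT male libraries was 143, 180, 347 and 368. In the 5 humanized male libraries it was 83.4, 93.5, 158, 171 and 207. The pooled ranges overlap, but within each form of the library name the WT values lie above the humanized ones: 347 and 368 against 158, 171 and 207 where the name starts with the group, and 143 and 180 against 83.4 and 93.5 where it starts with the tag. The humanized minus WT log2 difference was -0.92 (SE 0.19, adjusted p of 0.0487), just inside the threshold. In females it was 0.08 (adjusted p of 0.998), and the genotype by sex term was -0.9998 (adjusted p of 0.663), so the difference between the sexes did not pass the test. With 1 library left out the adjusted p ran from 0.0137 to 0.186, and the call was lost, at 0.0534 to 0.186, for 12 of the 20 adipose libraries. These 12 were WT male libraries 6, 9 and 11, humanized male libraries 7, 8, 9, 10 and 13, WT female libraries 6, 10 and 11 and humanized female library 8.

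The abundant members lay on the same side in adipose males without passing the test. All 12 unshifted 5p forms had a negative humanized minus WT difference, from -0.58 to -0.17 with a median of -0.36 and adjusted p from 0.0986 to 0.630, and 8 had an unadjusted p below 0.05. The lowest was let-7b-5p, at 796575, 820633, 948697 and 1063303 in the WT male libraries and 483329, 569939, 586174, 617124 and 745848 in the humanized ones. These ranges do not overlap, at a log2 difference of -0.58 (SE 0.17, adjusted p of 0.0986), while WT females (572326 to 787329) and humanized females (391972 to 751904) overlap. Next came let-7c-2-5p, at -0.47 with an adjusted p of 0.149. Shifted 5p forms were below 0 in 78 of 87 cases, whereas 11 of the 16 3p forms were above 0.

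Over all 115 members the median difference in adipose males was -0.40, against 0.04 over all features tested, and 39 members had an unadjusted p below 0.05, where 15.3% of all features did. All 39 were lower in humanized males, where 8.09% of all features were lower at that p. Members share reads, sequences and libraries, so these counts are not independent observations. In adipose females no member was called (0% of features), and 2 had an unadjusted p below 0.05 (2.47% of features). Of the 115 members 92 lay below 0, with a median of -0.14 against -0.00. Members above 0 made up 20%, against 49.8% of all features. The 2 smallest p-values in females were those of let-7a-2-5p_+_5 and let-7a-1-5p_+_5, at -0.51 and -0.47, with adjusted p of 0.998. Over both sexes no member was called (0% of features), 43 had an unadjusted p below 0.05 (13.9% of features) and the median was -0.25 against 0.03. All 43 were lower in humanized animals (7.94% of features), and the smallest p-values were those of let-7a-1-5p_+_5 and let-7a-2-5p_+_5, both at -0.60 (adjusted p of 0.16). The genotype by sex term called none (0% of features), with 3 members at an unadjusted p below 0.05 (4.85% of features), the lowest being let-7d-3p_+_1, given above, and let-7d-3p at -0.57 (adjusted p of 0.86).

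**Figure D4:**
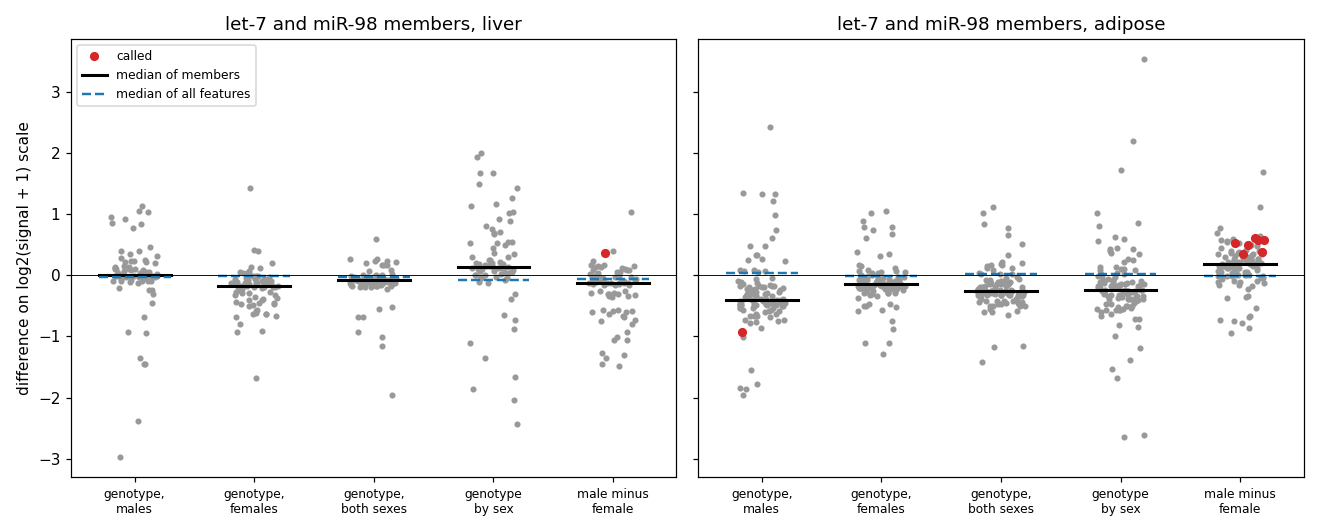
Log2 differences of the 80 liver and 115 adipose members in each of the 5 comparisons. Each point is 1 member, red where called, the black bar is the member median and the blue dashed line the median of all features tested. The members sit below the dashed line in adipose males and above it in the adipose sex comparison, and the called members are few.

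Red cell and hepatocyte signal reached its highest values in the same group, with ranges that overlap other groups. The red cell microRNAs miR-451a, miR-144 and miR-486 together took 0.672% to 3.12% of the signal in adipose WT males, 0.435% to 0.846% in humanized males, 0.346% to 0.940% in WT females and 0.207% to 0.729% in humanized females. The hepatocyte list, miR-122, miR-192 and miR-194, took 0.979% to 4.16% in adipose WT males and 0.335% to 1.48% in the other groups. All 3 markers of each list were detected. Other lists did not follow WT males. Endothelial miR-126 averaged 1.84% in WT males and 2.22% in humanized males. The leukocyte list averaged 0.262% in WT males and 0.261% in WT females. In the adipose mRNA table, albumin was at 129200 in 1 of the 2 WT male libraries and 1021 in the other. The part of these signals in the adipose differences of the family was not tested. In bulk tissue, fewer cells of a type and less RNA per cell cannot be told apart.

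The sex comparison was the one with the most calls. In liver 9.2% of features were called between males and females and 1 of 80 members was. At an unadjusted p below 0.05 there were 5 members, where 23.9% of features passed. The member called was let-7c-1-5p_-_1, the form that takes in the base before the mature sequence and so differs from let-7c-2. Its signal was 170.5, 201, 202, 205 and 210 in WT females and 215, 247.9, 249, 316 and 317 in WT males, without overlap. In humanized animals the values were 176, 192, 206, 229.3 and 246 in females and ran from 197 to 370 with a median of 265 in males, with overlap. The male minus female log2 difference was 0.37 (SE 0.10, adjusted p of 0.0281). It was 0.32 to 0.41 with each library left out in turn, and the adjusted p rose to 0.0593 at most. It was 0.19 (adjusted p of 0.219) in the libraries whose name starts with the group, 0.61 (adjusted p of 0.757) in those whose name starts with the tag, and 0.22 (adjusted p of 0.0498) on the authors' rlog values.

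The unshifted let-7c-1-5p, whose reads cannot be parted from those of let-7c-2-5p, differed by -0.07 (adjusted p of 0.648) in the same fit. The 80 members had a median sex difference of -0.12 in liver, against -0.05 over all features, and 61 lay below 0. Members above 0 made up 23.8%, against 44.7% of all features.

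The miR-99a and miR-125b-2 hairpins lie beside let-7c-1, and 5p forms of both were higher in liver of males. The level of miR-99a-5p averaged 2523 ± 876 (SD, n = 5) in WT females, 2592 ± 167 (SD, n = 5) in humanized females, 3696 ± 628 (SD, n = 5) in WT males and 3726 ± 803 (SD, n = 6) in humanized males, at a log2 difference of 0.53 (adjusted p of 0.00814). The level of miR-125b-2-5p, a sequence shared with the miR-125b-1 locus, was 636 ± 94.5 in WT females, 718 ± 102 in humanized females, 960 ± 157 in WT males and 938 ± 110 in humanized males (SD), at a log2 difference of 0.49 (adjusted p of 0.00428). The 3p forms were not called in liver, at 0.53 for miR-99a-3p (adjusted p of 0.061) and 0.21 for miR-125b-2-3p (adjusted p of 0.177), which is not shared with the other locus. In adipose tissue miR-125b-2-5p was lower in males by a log2 difference of -0.43 (adjusted p of 0.0229) and miR-99a-3p by -0.61 (adjusted p of 0.00732). Not called there were miR-99a-5p at -0.26 (adjusted p of 0.123) and miR-125b-2-3p at -0.08 (adjusted p of 0.549), whereas miR-125b-1-3p, of the other locus, was lower by -0.41 (adjusted p of 0.0368). The shared miR-125b 5p reads therefore cannot be assigned to the neighbour of let-7c-1, and let-7c-1-5p stood at 0.17 without a call. None of these partners was called between genotypes in either tissue.

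In adipose tissue 10% of features were called between the sexes, 4.31% as higher in males. All 7 members called were higher in males. At an unadjusted p below 0.05 there were 28 of 115 members, where 28% of features passed. The 7 called members comprised let-7i-5p with its plus 3 form, both forms of let-7d-3p, and plus 5 and plus 6 forms of let-7c.

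The most abundant was let-7i-5p. Its signal was 373847, 427988, 442189 and 518377 in WT males, and 274428, 283613, 294046, 344721 and 355389 in WT females. In humanized animals the values were 286964, 320296, 343369, 344258 and 508425 in males and ran from 230311 to 369845 with a median of 295898 in females. All 4 WT male libraries lay above every female library of either genotype, whereas humanized males overlapped the females. The male minus female log2 difference over both genotypes was 0.39 (SE 0.08, adjusted p of 0.00451), and it stayed between 0.35 and 0.43 with each library left out, with adjusted p of 0.0147 or less. In liver the same difference was -0.06 (adjusted p of 0.738).

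The let-7d-3p signal was 3381, 4624, 6685 and 8706 in WT males and 2550, 3073, 4181, 4660 and 4954 in WT females. In humanized animals it was 2258, 2979, 4620, 5017 and 5359 in males and ran from 1775 to 5273 with a median of 3761 in females. WT males reached the highest values and humanized males overlapped the females. The log2 difference was 0.35 (SE 0.11, adjusted p of 0.0467). Its plus 1 form, at 81.2, 97.3, 138, 138 and 151 in WT females and 64.3 to 164 with a median of 143.0 in humanized females, differed by 0.61 (SE 0.13, adjusted p of 0.00625). As with the genotype comparison, the highest values of this form were those of WT males, and humanized males overlapped both female groups.

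**Figure D5:**
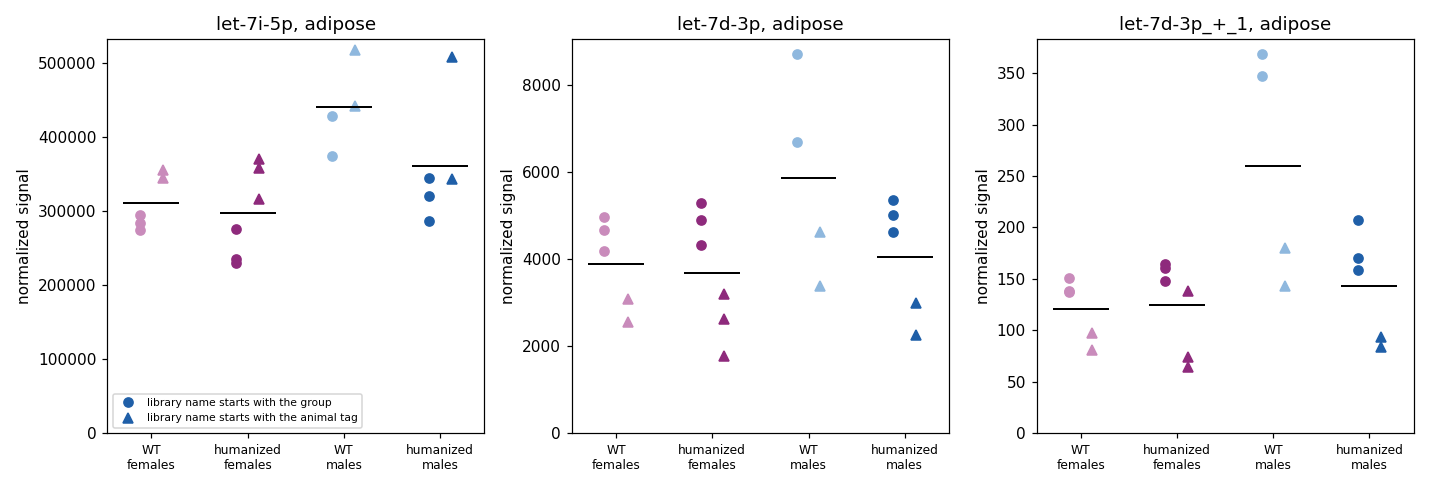
Signal of let-7i-5p, let-7d-3p and let-7d-3p_+_1 in each adipose library by group, on axes from 0. Circles are libraries whose name starts with the group, triangles those whose name starts with the animal tag, and bars are group means. WT males hold the highest values, and for the let-7d 3p forms circles lie above triangles within each group.

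The remaining calls were rare forms. The log2 differences were 0.58 for let-7c-1-5p_+_5 (adjusted p of 0.0384), 0.53 for let-7c-1-5p_+_6 (adjusted p of 0.0396), 0.57 for let-7c-2-5p_+_5 (adjusted p of 0.0396) and 0.50 for let-7i-5p_+_3 (adjusted p of 0.0467). Under 29 alternatives the call was lost in 2 for let-7i-5p and in 2 for let-7d-3p_+_1, but in 22 for let-7d-3p, in 20 for let-7i-5p_+_3 and in 15 for let-7c-1-5p_+_5. Copies of let-7c share these reads. All 12 unshifted 5p forms lay above 0 in this comparison, from 0.01 to 0.39. So did 87 of 115 members (75.7%, against 48.6% of all features), with a median of 0.18 against -0.01 over all features. The X-linked let-7f-2-5p and miR-98-5p were at 0.01 and 0.09, with adjusted p of 0.954 and 0.654. Since the highest red cell and hepatocyte values were those of WT male libraries, with ranges that overlap other groups, the values given above apply here too.

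Genes around let-7 were read from the mRNA tables by lists that hold 95 genes. The filter on low values left 79 of them for the liver fit and 82 for the adipose fit. As a check of the genotype labels, mouse As3mt in liver averaged 6014 ± 163 in WT females and 4330 ± 1600 in WT males, against 5.32 ± 0.591 in humanized females and 1.01 ± 1.00 in humanized males (SD, n = 3 each). The adipocyte hormone gene Adipoq was at 116720 or more in every adipose library and at 7.04 or less in every liver library. The liver gene Alb was at 3970061 or more in every liver library and at 12598 or less in every adipose library except the WT male one at 129200. No listed gene was called between genotypes in either tissue. The percentages of all genes called were 0.0329%, 0.0198% and 0.0329% in liver for males, females and both sexes, 0.00659% for the interaction, and 0.0172%, 0.0172%, 0.023% and 0% in adipose tissue. At an unadjusted p below 0.05 there were 9, 4, 4 and 7 of 79 listed genes in liver, where 7.13%, 5.66%, 5.07% and 8.18% of all genes passed. In adipose tissue there were 11, 3, 7 and 7 of 82, where 8.41%, 5.25%, 7.11% and 6.8% of all genes passed.

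Of the 6 genes listed as repressors of let-7 maturation, 3 passed the filter on low values in each tissue, namely Tut4, Tut7 and Dis3l2. The other 3 did not. Lin28b, whose protein sequesters let-7 precursors, was listed at 0 in all 12 liver libraries and reached at most 4.26 in adipose tissue. Lin28a, its paralog, reached 8.54 in liver and 2.25 in adipose tissue. Trim71, a let-7 target first described in the worm as lin-41, stayed at 9.75 or below in liver and 7.45 or below in adipose tissue.

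Of the 14 listed oncofetal targets, 8 passed the filter in liver and 9 in adipose tissue. Hmga2, a chromatin protein gene with several let-7 sites, reached 6.28 in liver and 173 in adipose tissue. Igf2bp1 stayed at 4.81 or below in liver and 15.1 or below in adipose tissue, and Igf2bp3 at 1.90 and 2.08 or below. Of Hmga2, Igf2bp1 and Igf2bp3, only Hmga2 in adipose tissue passed the filter. Others were well above it, such as Hmga1, a paralog of Hmga2, which averaged 1368 over the liver libraries and 1865 over the adipose libraries.

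The processing and effector genes were well above the filter. Dicer1, which cuts precursor hairpins, averaged 3165 in liver of WT females, 2941 in humanized females, 3710 in WT males and 3324 in humanized males, and it was not called in any comparison. All 20 genes of this list were tested in both tissues. Among them, Tarbp2, the double-stranded RNA-binding partner of Dicer, was higher in liver of males by a log2 difference of 0.38 (adjusted p of 0.0321). Huwe1 and Wdr82, the genes that hold the let-7f-2 and miR-98 locus and the let-7g locus, were not called in any comparison. The insulin pathway genes Igf1r, Insr and Irs2 were not called either, and 1 of 11 genes in that list, Map4k4, was.

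In liver 9.59% of genes were called between the sexes, and 7 of the 79 listed genes tested were, 2 higher and 5 lower in males. At an unadjusted p below 0.05 there were 21, where 26.1% of all genes passed. Ccnd1, which encodes the cell cycle protein cyclin D1, was at 12185, 14150 and 19700 in WT females, 8764, 8784 and 22144 in humanized females, 234, 900 and 2989 in WT males and 3985, 4756 and 6163 in humanized males. Every male library lay below every female one, and the log2 difference was -2.71 (SE 0.45, adjusted p of 0.00493). Tut4, whose product adds uridines to let-7 precursors bound by LIN28, was at 1522, 1560 and 2109 in WT females, 1749, 2654 and 3311 in humanized females, 624, 799 and 1077 in WT males and 1005, 1342 and 1965 in humanized males. The humanized male range overlapped both female groups, whereas WT males lay below every female library, and the difference was -0.96 (adjusted p of 0.0235).

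Smaller log2 differences in liver were those of Map4k4, a kinase gene (-0.89, adjusted p of 0.0166), Ccnd2, which encodes cyclin D2 (-0.57, adjusted p of 0.0241), Nr6a1, an orphan nuclear receptor gene (-0.46, adjusted p of 0.033), and Cdc34, a ubiquitin-conjugating enzyme gene (0.52, adjusted p of 0.017). The 7 calls fell to 3 without humanized female library 3 or without WT female library 3, and to 4 without humanized male library 2. With any 1 library left out there were 6 at most. In adipose tissue, where 0.42% of genes were called between the sexes, none of the 82 listed genes tested was, and 7 had an unadjusted p below 0.05, where 12.5% of all genes did. The nearest were Mycn at 1.44 (adjusted p of 0.127), Igf2bp2 at 1.55 (adjusted p of 0.144) and Dusp4 at -1.07 (adjusted p of 0.152).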

How the data were processed

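Small RNA and mRNA were measured in 64 libraries, 41 small RNA and 23 mRNA. The deposited small RNA and mRNA tables hold the authors' normalized signal per feature, scaled with DESeq2 per the submitters' processing notes, which also name mm9, STAR, Salmon and limma without versions or roles. The authors also deposited batch-corrected rlog values on a log2 scale, which served as an alternative. Small RNA libraries were made with the TriLink CleanTag kit, and liver mRNA libraries after ribosomal depletion or polyA enrichment, per the labels' protocols. Within each small RNA library the values were whole multiples (tolerance 0.05) of the smallest one divided by 10, with totals of 5819451 to 16647090 such steps in liver and 10772191 to 34352654 in adipose tissue. These totals limit rare forms most, and features under the smallest value, read here as 10 reads, are listed at 0. No 2 libraries were identical.

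Each of the 4 tables was fitted separately with limma 3.58.1 (R 4.3.3, empirical Bayes with trend) on log2(signal + 1), for features with a mean of 10 or more, as 1 model over the 4 groups. A pseudocount of 1 understates fold changes between low values that are listed above 0. Where a rare form is listed at 0 in some libraries, its differences can instead be overstated. The covariate was the form of the library name for small RNA and the labelled preparation for liver mRNA. Each table gave 5 comparisons, with Benjamini-Hochberg adjustment over all features tested and calls at an adjusted p below 0.05. The fit was tested on simulated data.

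Named members are those called, the 10 highest means per tissue, the 2 smallest p-values of each comparison without a call and the unshifted 5p forms. Listed genes are named where called or preset. Members and lists were chosen with earlier results of these data known. Alternatives changed the pseudocount, filter, scaling, covariate, replicate block and libraries. Sequences were matched by name to RefSeq tables of GRCm38.p6.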

Additional observations from a re-analysis of the deposited data

Results flagged for a closer look

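In 11 of 132 groups of libraries examined, 1 library stood apart from the rest of its group by Dixon's criterion, which chance meets in about 1 group in 20. Members share reads and libraries, so the groups are not independent and no excess over chance can be read from the 11. WT female liver library 2 held 4 of the 11: let-7c-1-5p_-_1 at 170.5, below the 201 to 210 of the others, and let-7f-1-5p at 352446, let-7f-2-5p at 410940 and miR-98-5p at 19000, each above the others. The let-7f forms are copies of 1 sequence. The signal of let-7f-1-5p was also high in WT male liver library 3, at 317475. In these same libraries miR-122 took 55.3% and 53.3% of the signal, whereas it took 42.6% to 49.9% in the other liver libraries. The remaining liver value was let-7i-5p in humanized male library 1, at 76558.

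WT female adipose library 10 was the highest of its group for let-7a-1-5p at 486434, let-7a-2-5p at 481704 and let-7c-2-5p at 961167, the first pair being copies of 1 sequence. WT male adipose library 12 was the highest for let-7d-5p at 289916. Humanized male adipose library 13 was the highest for let-7i-5p at 508425. Without it the sex difference of let-7i-5p kept its sign and its call.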

How the results depend on the processing

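No called difference of a named member changed its sign under any alternative run. The count of members called was 0 in every setting for the liver genotype comparisons, for adipose females, for adipose over both sexes and for both genotype by sex terms.

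The liver sex count of 1 became 3 with no filter on low values, and 0 with no covariate or in the libraries whose name starts with the tag. It stayed 1 in the group-first libraries, where the member called was not let-7c-1-5p_-_1. With 1 library left out it ran from 0 (without humanized female library 1 or 3) to 5 (without WT female library 2). The adipose male count of 1 became 0 with no filter, no covariate or the tag-first libraries only, and 2 on the authors' rlog values; with 1 library left out it ran from 0 to 1. Without a covariate let-7d-3p_+_1 differed by -0.83 (adjusted p of 0.377), and by -1.01 (adjusted p of 0.0377) in the group-first libraries, and over all alternatives its adjusted p ran from 0.0137 to 0.946. The adipose sex count of 7 became 2 with no filter, 3 under TMM scaling, 0 with no covariate, 2 in group-first and 1 in tag-first libraries, and 12 on rlog values. With 1 library left out it ran from 2 to 14 (without humanized female library 7). The adjusted p of let-7i-5p was 0.0578 without a covariate and 0.364 in tag-first libraries, within 0.00177 to 0.364 over all alternatives. The causes were not tested, and the group-first and tag-first settings also hold fewer libraries.

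Replicate numbers are shared between groups, but same-numbered libraries deviated together in only 6 of 30 liver and 2 of 17 adipose small RNA pairs. The same held for 3 of 18 liver mRNA pairs, but for 9 of 15 adipose mRNA pairs (median r of 0.148, against -0.133 for other pairs). Deviating together means a correlation of residuals above 0.1, which true pairs need not all reach. The check therefore cannot exclude a pairing, and in adipose mRNA most same-numbered pairs exceeded that value. The main fits treated the libraries as unpaired. With the replicate block the member counts were 0 for liver sex, 0 for adipose males and 2 for adipose sex, and the count of listed mRNAs was 6 for liver sex and 0 in the adipose comparisons.

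The liver pathway count of 7 ran from 3 to 6 with each of the 12 libraries left out in turn, so it was lower each time. The adipose count of 0 became 1 without humanized female library 6. The family share moved to 28.8% in liver without miR-122-5p. With copies counted once, a setting chosen after seeing the data, it moved to 11.0% and 23.0%. The 2 planned count models were not run, since the deposited small RNA values are normalized. Their whole steps give reads only up to a constant factor.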
